A study of Mus musculus with 8 samples.

Results

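The amino acid transporters examined here are the genes whose symbol in the platform annotation is Slc1a, Slc3a, Slc6a, Slc7a, Slc36a, Slc38a or Slc43a followed by a number. They comprised 38 of the 13119 genes with a probe set of their own, and 74 of the 28000 probe sets of the table. The families held 4 Slc1, 2 Slc3, 8 Slc6, 11 Slc7, 3 Slc36, 7 Slc38 and 3 Slc43 genes, and each gene was represented by its brightest probe set. RNA of the gravid mouse uterus at gestational day 18 was measured on Affymetrix GeneChip arrays of the mouse genome, with a single mouse on each of 4 wild-type and 4 Cox-1 KO arrays. The wild-type females were C57BL/6. The Cox-1 KO females, which lack cyclooxygenase-1 in all tissues, were of a C57BL/6 and Sv129 cross, so that strain background and the deleted gene cannot be told apart. Both groups were pregnant and 6 to 16 weeks of age by the labels. The methods name another substrain than Sv129 and a narrower range of ages, and the labels were followed here. They also state that the fetuses with their membranes and placentas had been taken out. The study used these uteri to look for genes linked to the late delivery of the knockout.

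Amino acids cross membranes through carriers that differ in substrate, in the ion they are coupled to and in the face of the cell they occupy. Absorptive epithelia of kidney, intestine and visceral yolk sac take amino acids up through luminal carriers. Slc3a1 is the heavy chain and Slc7a9 the light chain of the luminal exchanger for cystine and basic amino acids, and both genes are mutated in cystinuria. Slc6a19, the luminal sodium-dependent carrier of neutral amino acids, is mutated in Hartnup disorder. Most other cells rely on Slc3a2, the heavy chain that brings light chains such as Slc7a5, Slc7a7 and Slc7a8 to the plasma membrane, together with the sodium-coupled Slc38 and Slc1 carriers. Several genes that carry the family names move other cargo, such as creatine (Slc6a8), noradrenaline (Slc6a2) or nucleobases (Slc43a3).

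The 250 bases upstream of the annotated start are shown for the 3 members whose signal went with that of Apoa1, an apolipoprotein made in visceral yolk sac and liver. The sequences are from RefSeq on GRCm38.p6, 5′ to 3′ on the strand of the gene, and capitals mark a match to the HNF4 motif CAAAGTCCA.
Slc3a1, chr17:85028097-85028346, plus strand: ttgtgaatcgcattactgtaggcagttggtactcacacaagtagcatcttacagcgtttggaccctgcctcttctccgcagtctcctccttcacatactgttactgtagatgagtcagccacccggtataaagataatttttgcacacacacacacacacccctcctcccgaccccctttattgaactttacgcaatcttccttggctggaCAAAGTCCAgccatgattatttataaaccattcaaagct
Slc7a9, chr7:35448842-35449091, plus strand: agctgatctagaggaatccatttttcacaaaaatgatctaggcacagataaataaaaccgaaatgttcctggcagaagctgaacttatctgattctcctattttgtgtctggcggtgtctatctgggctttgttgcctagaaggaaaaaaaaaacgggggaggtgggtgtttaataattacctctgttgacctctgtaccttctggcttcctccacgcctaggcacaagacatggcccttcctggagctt
Slc6a19, chr13:73692637-73692886, minus strand: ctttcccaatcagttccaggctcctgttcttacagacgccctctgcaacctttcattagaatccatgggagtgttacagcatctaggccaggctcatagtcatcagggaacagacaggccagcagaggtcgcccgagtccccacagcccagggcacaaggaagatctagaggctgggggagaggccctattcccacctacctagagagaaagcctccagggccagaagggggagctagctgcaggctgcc

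Promoter windows were given for 26 of the 38 members, in 39 windows of 300 bases, with 2 windows for Slc7a9. The HNF4 motif CAAAGTCCA, searched on both strands, was found in 1 member window, that of Slc3a1, where it began 39 bases upstream of the start. Of all 32851 mouse windows, 0.475% held it. The HNF1 motif GTTAATNAT was in 0.801% of all windows and in no member window. The ATF4 motif TGATGNAA was in 3.97% of all windows and in 4 member windows of 3 genes, which are Slc7a11, Slc1a4 and Slc7a7. The Slc7a7 windows that hold it overlap and share a match, so the 4 windows are not independent of each other. These matches describe letters in the windows and say nothing of binding in these uteri.

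Array medians lay between 731 and 757, and pairs of arrays correlated at 0.944 to 0.976. Ptgs1, the gene deleted in the knockout, was not analysed here, so the genotype labels were not checked against it. The arrays differed far more in Apoa1. Its signal was 342, 615, 842 and 50275 in wild-type replicates 1 to 4 and 69038, 796, 58425 and 51184 in Cox-1 KO replicates 1 to 4. Wild-type replicate 4 and Cox-1 KO replicates 1, 3 and 4 were therefore high in Apoa1, the other 4 arrays were low, and no array lay between. Since 3 of the 4 high arrays were Cox-1 KO, each member was compared between the genotypes and also fitted with genotype and log2 Apoa1 signal together (limma, with Benjamini-Hochberg adjustment over all probe sets). The slope of that fit is the change in log2 signal for each doubling of Apoa1 signal. With Apoa1 in 2 separate sets of arrays it mainly compares those sets.

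The listed markers of the tissue and of other cells were measured on the same arrays. Summed signals of 15 genes of uterine muscle and stroma, such as Acta2, Myh11 and Esr1, were 321040 to 353664 in wild-type and 326067 to 347452 in Cox-1 KO, and no slope in that list passed. Summed signals of 23 yolk sac and fetal liver transcripts ran from 42186 to 316706 in wild-type and from 56394 to 499812 in Cox-1 KO. Apoa1 is in these sums, and Rbp4 made up 26827 of the 42186, which was on wild-type replicate 1. Of the listed transcripts, 19 of the 22 other than Apoa1 had an upward slope past the threshold, beside 1.16% of all probe sets. Among them were Apoa4 with 0.98, Apob with 1.08 and Afp with 0.53. Hnf4a, a transcription factor of yolk sac and liver, Sox17, an endoderm factor, and Rbp4, the plasma carrier of retinol, did not pass, with slopes of 0.033, -0.017 and 0.021. Hnf4a was dim, at 144 to 200 in wild-type and 137 to 279 in Cox-1 KO, which limits what its slope can show. For decidua and trophoblast, 9 measured genes gave sums of 26652 to 52218 in wild-type and 44805 to 63316 in Cox-1 KO, without a slope past the threshold. Of 13 genes of uterine epithelium and glands, Foxa2, a transcription factor of glands and endoderm, had a slope past it, of 0.36. Foxa2 stands in the yolk sac list as well and is already counted there. Its signals were 76 to 116 on the arrays low in Apoa1, and whether its slope comes from glands or from endoderm was not tested. The 7 genes of blood and immune cells had sums of 48436 to 50269 and 49914 to 56499, and no slope passed. With so small a share of all probe sets passing, lists of 7 to 15 genes would mostly hold none. What part these cells have in the transporter signals was not tested. In RNA of a whole organ, a change in the number of cells of a type and a change of RNA per cell cannot be told apart.

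Of the 38 members, 36 passed the filter on low signals, which asked for 100 or more on at least 4 arrays. Slc1a3, a glutamate carrier of glia, was at 18 to 94 in wild-type and 43 to 162 in Cox-1 KO and did not pass. Slc7a12, a light chain found in kidney, was at 36 to 90 and 17 to 64 and did not pass either. A gene could pass through the 4 arrays high in Apoa1 alone. Slc7a9 reached 100 on 7 arrays, Slc3a1 on 6 and Slc6a19 on all 8.

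Slc7a9, Slc3a1 and Slc6a19 rose with Apoa1 signal, the last narrowly, and no member fell. The upward threshold was passed by 3 of 36 members, or 8.33%, beside 1.16% of all 26440 probe sets tested, and the downward threshold by 0 of 36 beside 0.0605% of all. The median slope was 0.003 over the 36 members and -0.004 over all genes by their brightest probe set. Among the 5 measured genes of the luminal absorptive list, 3 rose, and the others, Slc1a1 and Slc36a2, had slopes of 0.013 and 0.064 that did not pass.

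Slc7a9, the light chain for cystine and basic amino acids, had signals of 135, 104, 86 and 1420 in wild-type replicates 1 to 4 and of 2730, 114, 2064 and 1196 in Cox-1 KO replicates 1 to 4. The 4 arrays high in Apoa1 all lay above the 4 low arrays, at 1196 or more against 135 or less, the latter around the limit of the filter. Its slope was 0.60 ± 0.052 (standard error, n = 8 arrays, adjusted p = 5.11e-05 by limma). Within wild-type the slope was 0.55 ± 0.072 and within Cox-1 KO 0.66 ± 0.076 (n = 4 arrays each). The standard errors come from a single fit of all arrays, with the variance shared by both genotypes. Each of these slopes rests on a single array at the sparser end, wild-type replicate 4 and Cox-1 KO replicate 2.

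Slc3a1, the heavy chain that pairs with Slc7a9, followed the same arrays. Its signals were 116, 92, 116 and 700 in wild-type and 1778, 83, 1158 and 925 in Cox-1 KO replicates 1 to 4, so that the arrays high in Apoa1 were at 700 or more and the low ones at 116 or less. Its slope was 0.51 ± 0.049 (standard error, n = 8 arrays, adjusted p = 1.14e-04 by limma). Signals of about 100 lie at the limit of the filter, and no detection calls were used here. The slopes within wild-type and within Cox-1 KO were 0.40 ± 0.052 and 0.63 ± 0.055, and their difference did not pass (adjusted p = 0.9996 by limma).

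Slc6a19, the luminal carrier of neutral amino acids, moved less. Its signals were 148, 116, 118 and 282 in wild-type and 639, 187, 355 and 429 in Cox-1 KO replicates 1 to 4. Again the 4 arrays high in Apoa1 lay above the others, and among the low arrays the Cox-1 KO array was the highest. Its slope of 0.19 ± 0.040 passed narrowly (standard error, n = 8 arrays, adjusted p = 0.0465 by limma) and was past the threshold in 8 of 19 alternatives. It was lost without any single array other than wild-type replicate 1, with adjusted p-values of up to 0.505. A second probe set of Slc6a19 had signals of 29, 60, 59 and 75 in wild-type and 327, 54, 178 and 155 in Cox-1 KO, and did not pass the filter. Its 3 brightest arrays were Cox-1 KO arrays high in Apoa1.

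**Figure D1:**
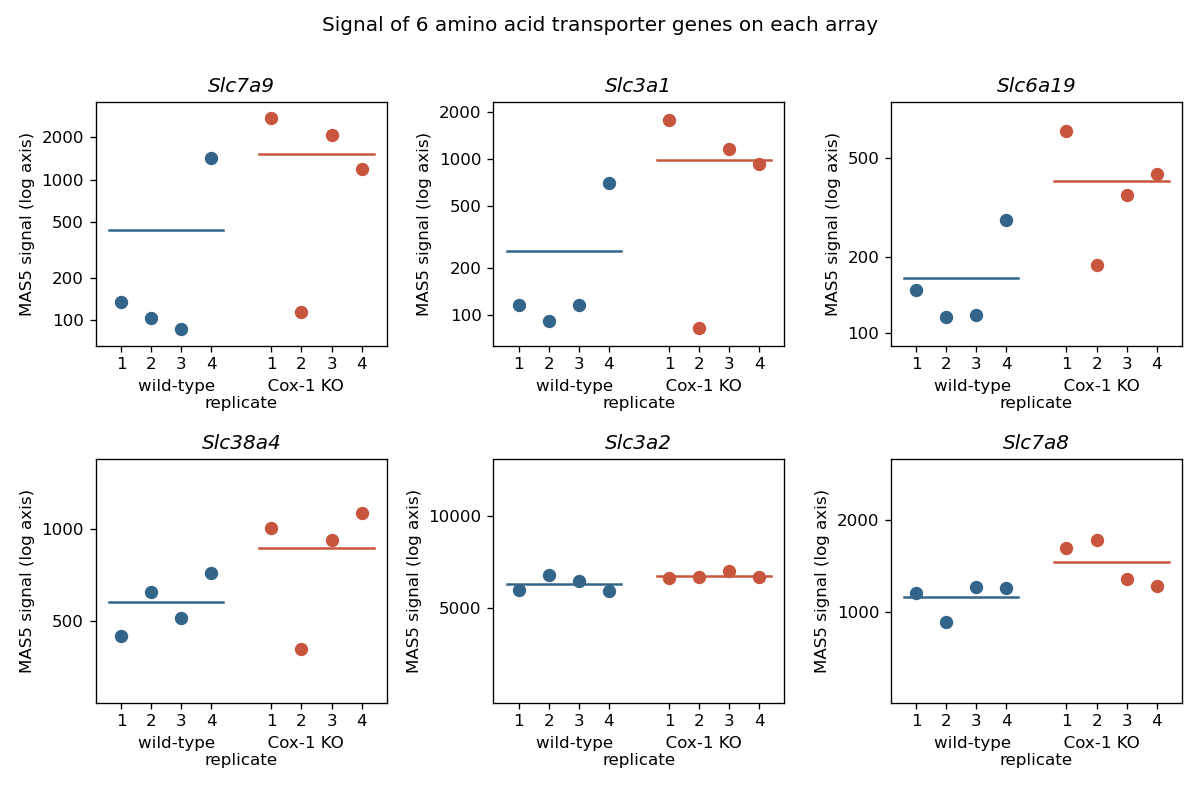
Signal of 6 transporter genes on each array, with the linear signal on a log axis, wild-type and Cox-1 KO side by side, a point for each array and a bar at each group mean. Slc7a9 and Slc3a1 sit near 100 on 4 arrays and between 700 and 2730 on the other 4, while Slc3a2 stays between 5688 and 6603 on all 8.

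Slc38a4, a system A carrier of the placenta and liver, stood just outside the threshold. Its signals were 444, 621, 509 and 718 in wild-type and 1002, 405, 914 and 1121 in Cox-1 KO replicates 1 to 4, again higher on every array high in Apoa1. Its slope was 0.14 ± 0.030 (standard error, n = 8 arrays, adjusted p = 0.0523 by limma), beside 0.19 and 0.0465 for Slc6a19 just inside. It passed in 6 of 20 alternatives. Its other probe set, with 382 to 779 over all arrays, had a slope of 0.10 and an adjusted p of 0.0975.

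The remaining members had slopes between -0.054 and 0.064, apart from Slc7a10 with 0.12. None passed. Slc7a7, a light chain that releases basic amino acids at the basolateral face, had a slope of 0.045 ± 0.017 (standard error, adjusted p = 0.364). Its signals of 1000 to 1217 on the arrays low in Apoa1 lay below the 1279 to 1580 on the high ones. Slc1a4, an exchanger of serine and alanine, had a slope of 0.063 ± 0.024 (adjusted p = 0.364), with 483 to 639 on the low arrays and 649 to 877 on the high ones. Its other probe sets had slopes of 0.018 and 0.025, and in both of them the low and high arrays overlapped. Slc7a10, a light chain for small neutral amino acids, had a slope of 0.12 ± 0.057 (adjusted p = 0.503), and its signals of 108 to 211 and 123 to 279 overlapped. The proton-coupled proline and glycine carrier Slc36a2 had 121 to 196 and 198 to 222. The lowest slope was that of Slc6a9, a glycine carrier, with -0.054 ± 0.024 (adjusted p = 0.477). Slc1a5, the glutamine exchanger, had -0.019 ± 0.011, the light chain Slc7a6 -0.031 ± 0.021, and Slc7a2, a carrier of basic amino acids, 0.029 ± 0.021.

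**Figure D2:**
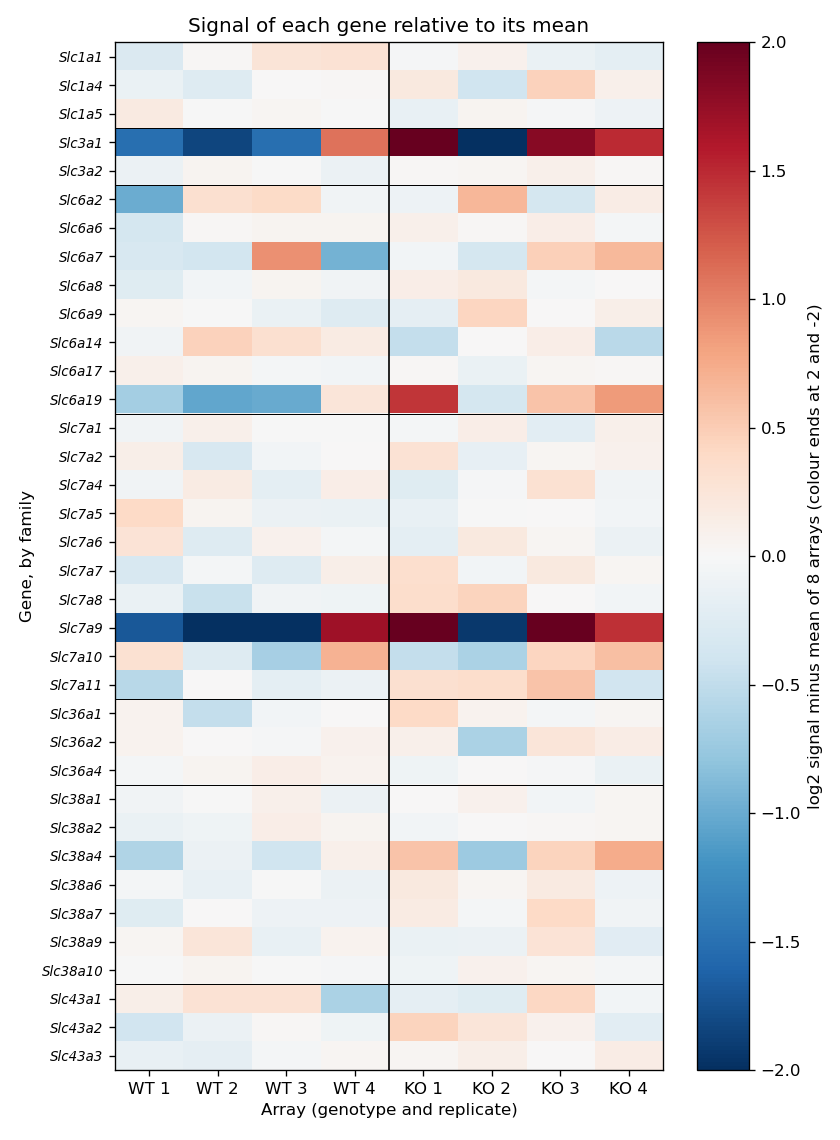
Log2 signal of the 36 members that passed the filter minus the gene's mean over the 8 arrays, by family (rows) and array (columns), with the colours ending at 2 in either direction. Slc7a9 and Slc3a1 are above their mean on wild-type replicate 4 and Cox-1 KO replicates 1, 3 and 4, and most other rows stay near 0.

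No transporter passed the threshold between the genotypes. The count was 0 of 36 members, beside 0.0113% of all 26444 probe sets, with log2 differences (Cox-1 KO minus wild-type) from -0.44 to 2.20 and a median of 0.12, beside -0.009 over all genes. The value was higher in Cox-1 KO for 22 members and lower for 14, and 28 of the 36 lay within 0.3 of 0. At an unadjusted p under 0.05 there were 4 members, or 11.1%, beside 8.81% of all probe sets. They are Slc6a19, Slc7a8, Slc6a14 and Slc43a3. The groups did not overlap for 1 member, or 2.78%, beside 4.41% of all probe sets. The p-values for genotype alone are judged against the spread between mice within each group. Those for the slope, for genotype at equal Apoa1 and for the product of both are judged against the scatter around the fit with Apoa1.

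The 3 luminal carriers had the largest differences, with wide spread within both groups. Slc6a19 averaged 166 ± 78.7 on the wild-type and 402 ± 187 on the Cox-1 KO arrays (SD, n = 4 each), with a log2 difference of 1.25 ± 0.380 (standard error, adjusted p = 0.489 by limma). The study's own list, chosen on these arrays, holds this gene, so its difference is not independent evidence. For Slc7a9 the means were 436 ± 656 and 1526 ± 1132 (SD, n = 4 each), with a log2 difference of 2.20 ± 1.04 (standard error, adjusted p = 0.574 by limma). For Slc3a1 they were 256 ± 296 and 986 ± 701 (SD, n = 4 each), with 1.88 ± 0.898 (standard error, adjusted p = 0.577 by limma). Apoa1 itself differed by 3.54 ± 1.67 (standard error, adjusted p = 0.574 by limma).

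With Apoa1 signal in the fit these values shrank. At equal Apoa1 the log2 difference was 0.076 ± 0.341 for Slc7a9, 0.062 ± 0.323 for Slc3a1 and 0.58 ± 0.262 for Slc6a19 (standard errors, n = 8 arrays). Again 0 of 36 members passed, beside 0.0303% of all probe sets, and at an unadjusted p under 0.05 there were 3, or 8.33%, beside 5.45% of all. They are Slc7a8, Slc6a9 and Slc6a19. Among the 4 arrays low in Apoa1, a single Cox-1 KO array stood against 3 of wild-type, and Slc7a9 and Slc3a1 were around the limit of the filter on all of them, so no direction was read there. Among the 4 high arrays, with 3 of Cox-1 KO against a single wild-type array, the log2 difference was 0.41 for Slc7a9, 0.82 for Slc3a1 and 0.71 for Slc6a19. None of these passed adjustment, and the lone wild-type array was taken to vary like the others.

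**Figure D3:**
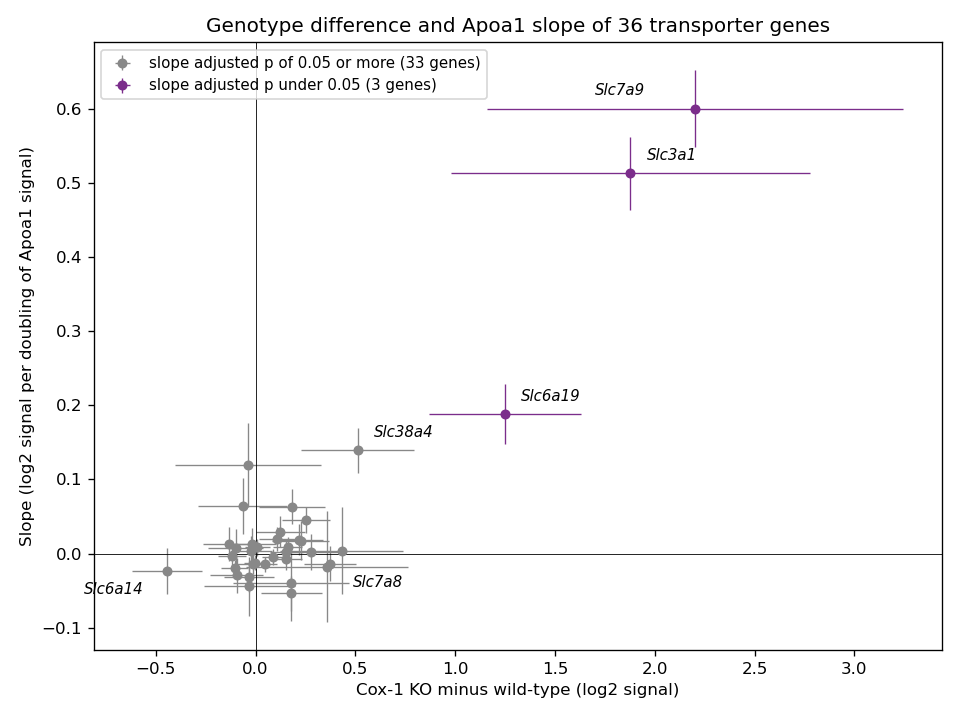
Log2 difference between Cox-1 KO and wild-type (horizontal) against the slope on log2 Apoa1 signal (vertical) for 36 transporter genes, with bars of 1 standard error. Slc7a9 (2.20, 0.60) and Slc3a1 (1.88, 0.51) stand apart at the upper right, Slc6a19 and Slc38a4 lie between, and the rest gather near 0 on both axes.

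Slc3a2 and its light chains were measured on every array. Slc3a2, the shared heavy chain, had signals of 5717, 6418, 6139 and 5688 in wild-type and 6266, 6307, 6603 and 6294 in Cox-1 KO replicates 1 to 4. The groups overlapped, and the log2 difference was 0.090 ± 0.058 with a slope on Apoa1 of -0.005 ± 0.011 (standard errors). Of the 9 measured genes of the heavy and light chain list, 0 passed between the genotypes, beside 0.0113% of all probe sets. For the slope 2 passed, beside 1.16% of all probe sets upward. They are the luminal pair Slc7a9 and Slc3a1, already counted above.

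Slc7a8, a light chain that exchanges neutral amino acids, was the member whose groups did not overlap. Its signals were 1153, 926, 1204 and 1192 in wild-type and 1618, 1717, 1278 and 1214 in Cox-1 KO replicates 1 to 4. Every Cox-1 KO array was above every wild-type array, although the lowest of the former exceeded the highest of the latter only by 1214 against 1204. The log2 difference was 0.37 ± 0.132 (standard error, adjusted p = 0.526 by limma), 0.42 ± 0.156 at equal Apoa1, and its slope was -0.014 ± 0.024. The brightest array, Cox-1 KO replicate 2, was low in Apoa1. Within the arrays low in Apoa1 the difference was 0.66 and within the high ones 0.19, each with a single array of a genotype.

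The other light chains overlapped between the groups. Slc7a7 averaged 1154 ± 162 on the wild-type and 1374 ± 165 on the Cox-1 KO arrays (SD, n = 4 each), with a log2 difference of 0.25 ± 0.120 (standard error, adjusted p = 0.573 by limma). Its second probe set gave 0.30 with an unadjusted p of 0.0177. Slc7a5, the light chain for large neutral amino acids, was at 492 to 713 in wild-type and 490 to 547 in Cox-1 KO. Slc7a6 had 1075 to 1554 and 1115 to 1468, and Slc7a11, the cystine and glutamate exchanger, 68 to 101 and 77 to 149. Slc7a11 reached 100 on 4 arrays only, wild-type replicate 2 and Cox-1 KO replicates 1 to 3, and so passed the filter mainly through Cox-1 KO.

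In the Slc6 family Slc6a14, a carrier of neutral and basic amino acids found in mucosal epithelia, had the lowest log2 difference of all members. Its signals were 640, 928, 841 and 757 in wild-type and 483, 673, 737 and 461 in Cox-1 KO replicates 1 to 4. The groups overlapped through Cox-1 KO replicates 2 and 3, and the log2 difference was -0.44 ± 0.174 (standard error, adjusted p = 0.538 by limma). A second, dimmer probe set gave -0.20 with an unadjusted p of 0.34. The 13 genes of uterine epithelium and glands had sums of 150647 to 234308 in wild-type and 195526 to 237071 in Cox-1 KO, and whether they bear on Slc6a14 was not tested.

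The Slc6 carriers of transmitters and osmolytes gave small differences. Slc6a8, the creatine carrier, had signals of 2832 to 3511 in wild-type and 3262 to 3866 in Cox-1 KO, with a log2 difference of 0.15 ± 0.083 (standard error, adjusted p = 0.616 by limma). The taurine carrier Slc6a6 had 2870 to 3825 and 3572 to 4021. Slc6a9 had 320 to 390 and 336 to 512, with a log2 difference of 0.18 ± 0.153 and of 0.37 ± 0.159 at equal Apoa1 (standard errors, adjusted p = 0.894 for the latter). The noradrenaline carrier Slc6a2 varied widely within both groups, with 679 to 1764 in wild-type and 1059 to 2143 in Cox-1 KO. Slc6a17, a vesicular carrier of neurons, differed by -0.02 on the log2 scale. Slc6a7, the proline carrier, was at 59 to 214 and 89 to 178 and reached 100 on 4 arrays.

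**Figure D4:**
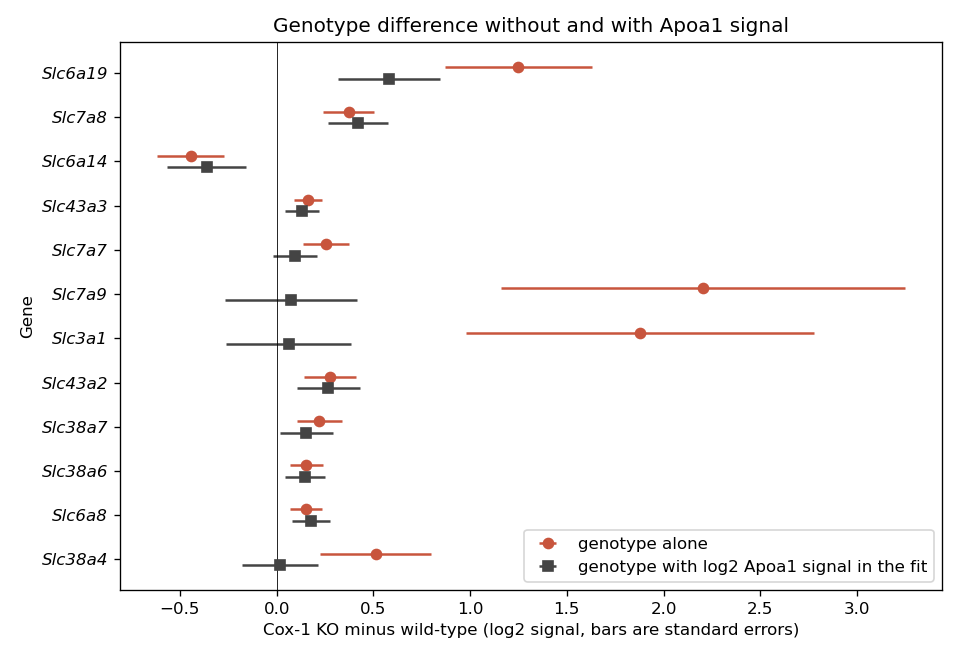
Log2 difference between Cox-1 KO and wild-type for the 12 members with the smallest genotype p, without and with log2 Apoa1 signal in the fit, with bars of 1 standard error. The differences of Slc7a9 and Slc3a1 go from 2.20 and 1.88 to below 0.1, whereas Slc7a8 goes from 0.37 to 0.42.

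None of the 7 measured Slc38 carriers passed between the genotypes. Slc38a2, a system A carrier that responds to amino acid supply, had signals of 13038 to 15714 in wild-type and 13768 to 14689 in Cox-1 KO, a log2 difference of 0.010 ± 0.063 (standard error). Slc38a1, of the same system, differed by 0.046 ± 0.061, and Slc38a10 by -0.002 ± 0.056 by its brightest probe set. The 5 probe sets of Slc38a10 ran from -0.46 to 0.09. The lowest, a dimmer one, had an adjusted p of 0.530, and gave -0.64 at equal Apoa1 with an adjusted p of 0.678 (both by limma). Slc38a4 had means of 573 ± 121 and 860 ± 315 (SD, n = 4 each) and a log2 difference of 0.51 ± 0.285 (standard error, adjusted p = 0.623 by limma), which became 0.018 ± 0.198 at equal Apoa1. Slc38a7, a lysosomal carrier of glutamine, gave 0.22 ± 0.116 and Slc38a6 gave 0.15 ± 0.083. Slc38a9, the lysosomal carrier that senses arginine, gave -0.10 ± 0.135 by its brightest probe set, and its 6 probe sets ran from -0.60 to 0.09.

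No measured carrier of Slc1, Slc36 or Slc43 passed between the genotypes or for the slope, nor did Slc7a1, Slc7a2 or Slc7a4. Slc1a5 had 6175 to 7084 in wild-type and 5642 to 6459 in Cox-1 KO, a log2 difference of -0.10 ± 0.066, and the glutamate carrier Slc1a1 gave -0.13 ± 0.128 (standard errors). Slc1a4 gave 0.18 ± 0.167. Slc7a1, which carries basic amino acids, differed by -0.01 ± 0.080, Slc7a2 by 0.12 ± 0.122 and the related Slc7a4 by -0.02 ± 0.121. The proton-coupled Slc36a1 gave 0.23 ± 0.144 and Slc36a4 -0.12 ± 0.070.

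Slc43a3 and Slc43a2 were both higher by value in Cox-1 KO. Slc43a3, the nucleobase carrier, had signals of 2096, 2058, 2256 and 2375 in wild-type and 2390, 2523, 2338 and 2566 in Cox-1 KO replicates 1 to 4. The groups overlapped by Cox-1 KO replicate 3 and wild-type replicate 4, and the log2 difference was 0.16 ± 0.072 (standard error, adjusted p = 0.561 by limma). Slc43a2, a facilitated carrier of large neutral amino acids, had means of 1869 ± 215 and 2284 ± 436 (SD, n = 4 each) and a log2 difference of 0.28 ± 0.136 (standard error, adjusted p = 0.583 by limma). Its 3 probe sets gave 0.28, 0.59 and 0.10. The 0.59, from a dimmer probe set, had an unadjusted p of 0.0088 and an adjusted p of 0.502 (both by limma). Slc43a1, of the same substrate class, overlapped with 232 to 441 and 305 to 480.

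Whether slopes on Apoa1 differed between the genotypes was tested with a product term. It passed for 0 of 36 members and 0 of 26440 probe sets, and at an unadjusted p under 0.05 for 3 members, or 8.33%, beside 3.27% of all probe sets. They are Slc3a1, Slc38a4 and Slc43a1. Slc38a4 had a slope of 0.076 ± 0.033 within wild-type and 0.21 ± 0.035 within Cox-1 KO, and Slc43a1 of -0.13 ± 0.043 and 0.047 ± 0.046 (n = 4 arrays each). These standard errors too come from a single fit of all arrays with a shared variance.

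Carriers of amino acids and peptides outside these families were measured for comparison. Of 15 tested, 0 passed between the genotypes, beside 0.0113% of all probe sets, and 0 for the slope, beside 1.16% upward. At an unadjusted p under 0.05 there were 4 between the genotypes, beside 8.81% of all probe sets, and 0 for the slope. In 3 of the 15 the groups did not overlap, beside 4.41% of all probe sets. Slc25a12, the mitochondrial carrier of aspartate and glutamate, had the smallest p. Its signals were 2599, 2508, 2507 and 2599 in wild-type and 1814, 2103, 2063 and 2044 in Cox-1 KO replicates 1 to 4. All Cox-1 KO arrays lay below all wild-type arrays, with a log2 difference of -0.35 ± 0.070 (standard error, adjusted p = 0.200 by limma). Slc66a1, a lysosomal exporter of basic amino acids, had 400 to 562 and 593 to 930, without overlap, and a log2 difference of 0.60 ± 0.159 (standard error, adjusted p = 0.401 by limma). Slc25a29, a mitochondrial carrier of basic amino acids, had 761 to 948 and 971 to 1432, also without overlap, and 0.38 ± 0.133 (standard error, adjusted p = 0.526 by limma).

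Genes of the amino acid response and of amino acid synthesis were also compared, since Atf4 drives several transporters when amino acids are short. Of 28 tested, 0 passed between the genotypes, with 2 at an unadjusted p under 0.05 beside 8.81% of all probe sets, and 2 rose with Apoa1 beside 1.16%. Both belong to serine synthesis. Psat1, its aminotransferase, had signals of 1113, 999, 1068 and 1951 in wild-type and 2846, 1032, 2046 and 2158 in Cox-1 KO replicates 1 to 4, and a slope of 0.16 ± 0.021 (standard error, adjusted p = 0.002 by limma). Psph, its phosphatase, had 855, 812, 836 and 1180 and then 1987, 816, 1745 and 1450, and a slope of 0.12 ± 0.023 (standard error, adjusted p = 0.0245 by limma). For both genes the 4 arrays high in Apoa1 lay above the low ones. Phgdh, the first enzyme of the pathway, had a slope of 0.099 ± 0.032 that did not pass (standard error, adjusted p = 0.265 by limma). Atf4 and its target Asns, the asparagine synthetase, had slopes of -0.01 ± 0.012 each and log2 differences of 0.003 ± 0.065 and -0.07 ± 0.066 between the genotypes.

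**Figure D5:**
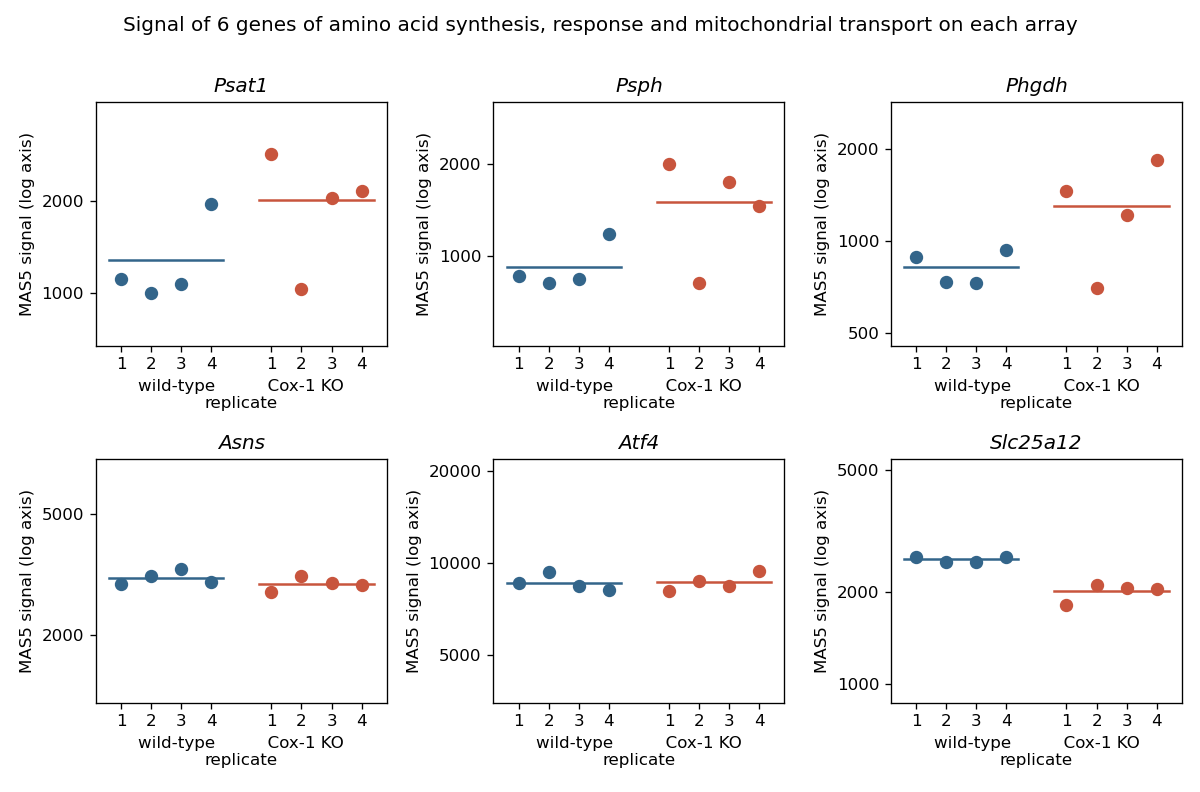
Signal of 6 related genes on each array, with the linear signal on a log axis, a point for each array and a bar at each group mean. Psat1 and Psph are higher on wild-type replicate 4 and Cox-1 KO replicates 1, 3 and 4, Asns and Atf4 overlap, and Slc25a12 lies at 1814 to 2103 in Cox-1 KO below 2507 to 2599 in wild-type.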

How the data were processed

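Total RNA of 8 uteri (4 wild-type, 4 Cox-1 KO) was labelled and hybridized singly. The deposited values are the signal intensity that the authors computed with MAS5 and scaled to a target of 1000, on a linear scale for 28000 probe sets. MAS5 is version 5 of the Affymetrix Microarray Suite. How the probe sets were chosen is not given in the sources used here. Groups came from the sample labels. Gene names came from the platform annotation, whose 38 member genes all matched RefSeq, and 653 probe sets with several symbols named no gene. Array number limits the precision.

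The 1 value under 1 was raised to 1 and log2 was taken, with no further normalization. The 60 array controls were left out, and the filter asked for a signal that reached 100 on 4 arrays or more. Linear models with a variance trend (limma 3.58.1 in R 4.3.3, checked on simulated data) gave the genotype difference, the slope on log2 Apoa1 (by its designated probe set, all 4 Apoa1 probe sets left out of the test) with genotype, and their product, with Benjamini-Hochberg adjustment over all probe sets kept and a threshold of 0.05. Motifs were searched in Python 3.11.15.

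The members and lists were chosen with earlier results of these data known. Named are the members past the threshold, the 12 with the smallest p for genotype and for slope, the 2 with the smallest genotype p in each list of members, Slc3a2, and for other lists those past the threshold, up to 6, or the 3 with the smallest p. Others were named after their values were seen, as members of a family. Alternatives were no filter, a filter at 200, an added constant of 32, a floor of 100, quantile normalization, median centring, no trend, a replicate block, each array left out, averaging the probe sets of each gene, the other probe sets, no genotype term, the mean of yolk sac transcripts in place of Apoa1, and the methods' t-test with a 1.5-fold threshold. The comparison within the arrays low or high in Apoa1 was added after seeing the data. The Dixon test used a critical value of 0.829.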

Additional observations from a re-analysis of the deposited data

Results flagged for a closer look

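In groups of 4 arrays, a single array stood far from the other 3 in 4 of 38 groups examined, over 19 named genes. Chance alone gives such a gap in about 1 in 20 groups that were not chosen by their values. These genes were named by their p for genotype or for the slope on Apoa1. That rate therefore cannot be set against the count, and naming by slope favours gaps on arrays that are unlike their group in Apoa1. Slc7a9 had a signal of 1420 on wild-type replicate 4 and of 86 to 135 on the other wild-type arrays. Slc3a1 had 700 on the same array and 92 to 116 on the others. Slc36a2 had 121 on Cox-1 KO replicate 2 and 201 to 222 on the other Cox-1 KO arrays. These 3 values were on the array of each genotype whose Apoa1 signal was unlike that of its group. Slc7a8 had 926 on wild-type replicate 2 and 1153 to 1204 on the other wild-type arrays.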

How the results depend on the processing

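The slopes of Slc7a9 and Slc3a1 passed in all 19 alternatives, with adjusted p-values of 7.13e-07 to 0.0069 and 6.49e-06 to 0.0087. These alternatives reuse the same arrays and are not independent of each other. Under the stricter filter Slc7a9, Slc3a1 and Slc6a19 were kept only through the arrays high in Apoa1. The yolk sac list used in place of Apoa1 holds Apoa1, and most of its other transcripts rose with it. Neither setting is therefore a separate check on the slopes. Slc6a19 passed in 8 of 19 and Slc38a4 in 6 of 20. The count of members with a slope past the threshold ran from 2 to 4 (2 to 3 with an array left out), and 0 passed between the genotypes except 1, Slc6a19, by the methods' t-test and 1.5-fold threshold. Over all probe sets the genotype count of 3 became 10 with an added constant of 32, 12 with a floor of 100, 11 with median centring, 0 when the probe sets of each gene were averaged, 228 by the methods' t-test and 1.5-fold threshold (2 after Benjamini-Hochberg, with 0 members), and 6 and 15 within the arrays low and high in Apoa1. With an array left out it ran from 2 to 25, the latter without wild-type replicate 1, and was 9 without Cox-1 KO replicate 2 or 4. The slope count of 323 became 161 with no trend and 638 with no genotype term, and ran from 115 without Cox-1 KO replicate 2 to 360, with 177 without wild-type replicate 4. The cause was not tested. Within the arrays low in Apoa1 the genotype values were -0.37 for Slc3a1 and -0.36 for Slc38a4, each from a single Cox-1 KO array and, for Slc3a1, from signals around the limit of the filter, so that no direction can be read from them. Replicate numbers did not pair the arrays: correlations of same-numbered deviations were -0.25, 0.22, -0.18 and 0.17, and 1 of 4 correlated best with its own number. With the replicate block the counts were 3 for genotype and 255 for the slope, and 2 members kept a called slope. Signals near 100 limit what low members can show.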
